A study of Gasterosteus aculeatus with 12 samples.

Results

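MIOX, myo-inositol oxygenase, was examined in the kidney of the threespine stickleback, as 1 of 20860 Ensembl genes in the deposited table of expression levels. Its row, ENSGACG00000012900, was chosen because its level nearly vanished in one of the treatments of the same 12 libraries. All MIOX levels and fold differences below are therefore a description, and no test of MIOX is given. The libraries came from 4 acclimation treatments with 3 replicates each, all adult females kept for 30 days before sampling. SW33K were saltwater sticklebacks from Bodega Bay kept at a salinity of 33 g/L. FW00K, FW11K and FW33K were freshwater sticklebacks from a lake in Davis kept at 0, 11 and 33 g/L. Saltwater fish at 0 or 11 g/L were not analysed here. SW33K and FW33K thus differ in population. Their reads were also mapped with a different number of allowed mismatches, and both factors cannot be told apart.

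MIOX opens the ring of myo-inositol to give glucuronate, and is the committed step by which the kidney breaks myo-inositol down. Glucuronate then passes through gulonate and xylulose towards the pentose phosphate pathway. In mammals the enzyme is found mainly in the proximal tubule. myo-Inositol is also an organic osmolyte, a small molecule that mammalian kidney cells take up or make in hypertonic surroundings to balance their volume. Its level in a cell depends on transport, synthesis from glucose 6-phosphate and breakdown through MIOX.

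Expression is given as FPKM, the number of sequenced fragments assigned to a gene, divided by its length and by the mapped reads of the library. FPKM hold no read numbers. The study lists reads per library, which differ between replicates and were not used here, so no counting interval is given. Bulk kidney RNA cannot separate fewer cells of a type from less RNA per cell. A table of RefSeq genes for another assembly of the species, fGasAcu3.hap1.1, lists 1 gene with the symbol miox among 52177 genes. There it overlaps the neighbouring gene lmf2a at one end. The library kit is not stated to mark strand, so reads from such an overlap could not be assigned to either gene by strand.

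Before the results, 2 features of the libraries need stating. Replicates 2 and 3 of each treatment were nearly alike, with Pearson's r of 0.977 to 0.983 over the 2000 most variable genes, against 0.553 to 0.897 for the other 8 pairs within a treatment. The study describes the 3 replicates of a treatment as individual fish, and the labels do not explain this likeness. The spread over 3 libraries may still be partly technical and p-values may be too small. Replicate 1 stood apart in SW33K, FW00K and FW11K. For SW33K replicate 1, r was 0.831 to 0.857 with the other SW33K libraries and 0.829 to 0.853 with the FW33K libraries. FW00K replicate 1 had r of 0.553 and 0.590 with the other FW00K libraries. FW11K replicate 1 had r of 0.781 and 0.796 with the other FW11K libraries. With FW00K replicates 2 and 3 its r was higher, at 0.813 and 0.830. The general level also differed. The median FPKM of the 15503 genes averaging 1 FPKM or more was 5.43 to 11.0 in SW33K, 14.4 to 16.7 in FW00K, 10.3 to 11.8 in FW11K and 4.39 to 6.75 in FW33K. GAPDH, the study's reference gene for qRT-PCR, was no common standard either, at 48.7 to 539 FPKM in SW33K, 984 to 987 in FW00K, 206 to 1921 in FW11K and 224 to 291 in FW33K.

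MIOX was abundant in freshwater fish at 0 and 11 g/L and near 0 in freshwater fish at 33 g/L. In SW33K, MIOX was at 0.250, 5.17 and 4.98 FPKM in replicates 1, 2 and 3. In FW00K it was at 189, 152 and 153 FPKM, and in FW11K at 184, 258 and 254 FPKM. In FW33K it was at 0.0812, 0.0993 and 0.167 FPKM. No library listed MIOX at 0. The 3 FW33K libraries were the 3 lowest of the 12. SW33K replicate 1 lay next above them, 20.7-fold under the highest SW33K library, whereas the libraries of the other treatments spanned 1.25-fold in FW00K, 1.4-fold in FW11K and 2.06-fold in FW33K.

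**Figure D1:**
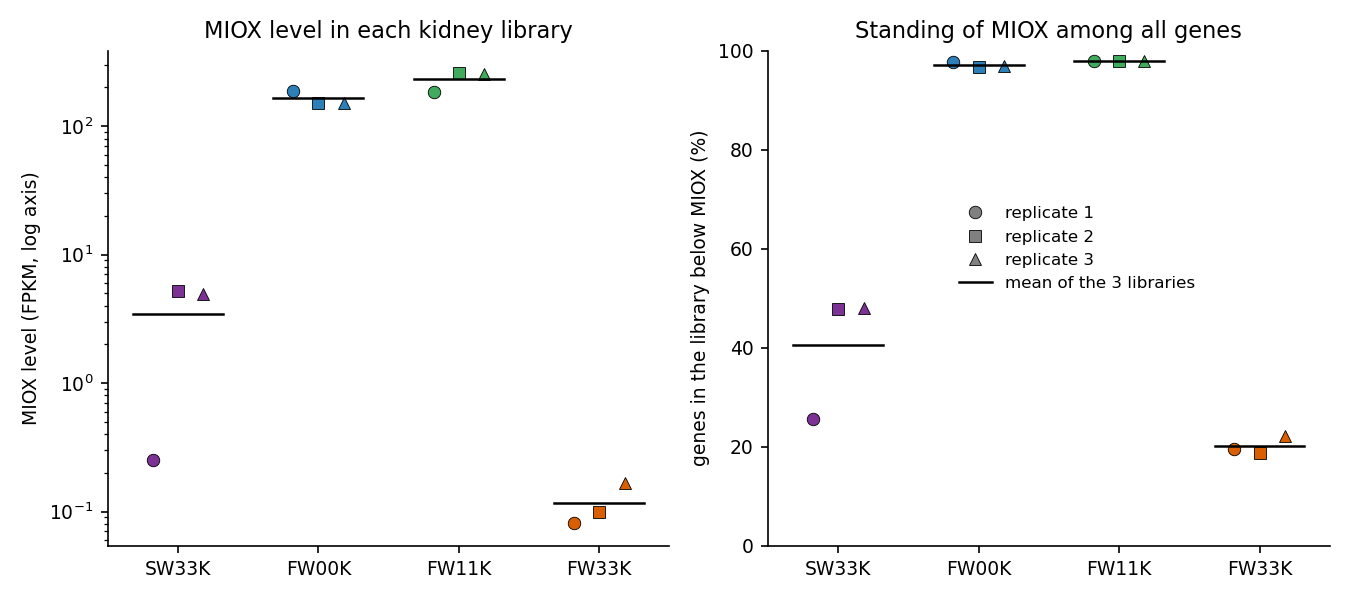
MIOX in the 12 kidney libraries. Left, FPKM on a log axis by treatment; right, the percentage of the 20860 genes that lay below MIOX in the same library. Symbols are replicates and lines are means of 3 libraries. FW00K and FW11K lie between 152 and 258 FPKM, FW33K between 0.0812 and 0.167 FPKM, and SW33K replicate 1 lies near FW33K at 0.250 FPKM.

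The treatment means were 3.47 ± 2.79 FPKM in SW33K, 164 ± 21.4 FPKM in FW00K, 232 ± 41.4 FPKM in FW11K and 0.116 ± 0.0454 FPKM in FW33K (SD, n = 3 each). The order from high to low was FW11K, FW00K, SW33K and FW33K. FW11K and FW00K, neighbours in this order, overlapped, since FW11K replicate 1 at 184 FPKM lay below FW00K replicate 1 at 189 FPKM. The other neighbours did not overlap. The lowest SW33K library at 0.250 FPKM was 1.5-fold above the highest FW33K library at 0.167 FPKM. Both values are near 0 and the reads behind them were not analysed, so this gap may lie within counting error.

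Set against FW00K, the FW33K mean was 0.0705% of the FW00K mean, or 1419-fold lower. Single library pairs ranged from 907-fold to 2331-fold lower in FW33K. The FW33K values are near 0 and the reads behind them were not analysed, so the precision of folds against FW33K is not known. Differences were taken on log2(FPKM + 1), a scale that makes the change of low genes look smaller. The difference FW33K minus FW00K was -7.21 (SE 0.11). Of the 15503 genes compared, 2 had a more negative difference. FW33K minus FW11K was -7.69 (SE 0.16), with a mean 2003-fold lower in FW33K, and none of the 15503 genes had a more negative difference.

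FW11K minus FW00K was 0.49 (SE 0.19) on the log2(FPKM + 1) scale, and the FW11K mean was 1.41-fold the FW00K mean. Single library pairs ranged from 0.974-fold to 1.70-fold. The difference of the means was 67.6 FPKM, beside SDs of 41.4 and 21.4 FPKM. The levels at 0 and 11 g/L therefore overlapped, and the drop of MIOX lay between 11 and 33 g/L.

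SW33K minus FW33K was 1.68 (SE 0.76) on the log2(FPKM + 1) scale. The SW33K mean was 29.9-fold the FW33K mean, but this ratio rested on replicates 2 and 3. Those 2 libraries were 43.8-fold above the FW33K mean, whereas SW33K replicate 1 was 2.16-fold above it. All these ratios rest on FW33K values near 0, and the reads behind them were not analysed. Without SW33K replicate 1 the log2 difference was 2.44. SW33K also remained well below freshwater fish in fresh water. Its mean was 2.11% of the FW00K mean, with replicate 1 at 0.152% and the mean of replicates 2 and 3 at 3.08%.

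The standing of MIOX within each library gave the same order of treatments without any scaling between libraries. MIOX ranked 15538, 10876 and 10853 from the top in SW33K, 466, 670 and 654 in FW00K, 451, 447 and 449 in FW11K, and 16791, 16943 and 16218 in FW33K. Thus 96.8% to 97.8% of genes lay below MIOX in FW00K, 97.8% to 97.9% in FW11K, 18.8% to 22.3% in FW33K, and 25.5%, 47.9% and 48.0% in the SW33K libraries. MIOX stood at 10.2 to 11.3 times the library median in FW00K, at 17.9 to 22.1 times in FW11K, and at 0.0147 to 0.0273 times in FW33K. In SW33K it stood at 0.0461 times the median in replicate 1 and at 0.470 and 0.471 times in replicates 2 and 3.

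Few abundant genes behaved like MIOX between fresh water and 33 g/L. Of 817 genes at 100 FPKM or more in every FW00K library, 15 were under 10 FPKM in every FW33K library and 2 were under 1 FPKM in each. These 2 were MIOX and CYP2W1 (3 of 5), a cytochrome P450 named here after its values were seen. CYP2W1 (3 of 5) averaged 0.317 FPKM in FW33K and 317 FPKM in FW00K, but 80.9 FPKM in FW11K and 54.3 FPKM in SW33K. Of this pair, MIOX alone also stayed above 100 FPKM in every FW11K library. MIOX was chosen on its values in all 12 libraries. Neither its place under the 1 FPKM cutoff nor its level above 100 FPKM in FW00K and FW11K is therefore a separate finding. Among the 15 genes, ENSGACG00000018254, named after its values were seen, had a similar shape over a smaller range. Freshwater fish averaged 125 FPKM of it at 0 g/L, 141 FPKM at 11 g/L and 5.73 FPKM at 33 g/L. Saltwater fish averaged 37.5 FPKM.

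A general shift of all genes accompanied these differences. As for the shift itself, the median log2 difference of the 15503 genes was -1.20 in FW33K minus FW00K and -0.34 in FW11K minus FW00K. It was -0.82 in FW33K minus FW11K and 0.47 in SW33K minus FW33K. Relative to this median, MIOX differed by -6.01, 0.82, -6.87 and 1.21 in the same 4 comparisons. Median-ratio scaling, a division of every library by the median of its gene-wise ratios to an average library, brought the median of all genes to between -0.05 and 0.02. MIOX then lay at -6.44, 0.86, -7.32 and 1.56 relative to it. The direction of the MIOX difference did not change in any of the 4 comparisons. After this scaling FW11K and FW00K no longer overlapped, at 169 to 210 scaled FPKM in FW11K and 101 to 113 in FW00K.

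The 5 genes that could be matched from a list around inositol and glucuronate did not share the pattern of MIOX. The list held 24 human symbols, chosen around synthesis, transport, breakdown and phosphorylation of inositol and the use of glucuronate. Symbols were paired with identifiers only for genes that the study itself selected as salt responsive on these libraries, so the list is not independent evidence of a direction. This left 5 genes, all printed here, of which 4 averaged 1 FPKM or more and were entered in the limma test. The sodium-coupled inositol transporters and inositol synthase had no paired identifier and were not analysed here. The same holds for AKR1A1, CRYL1, DCXR, SORD and XYLB, so the route from glucuronate onwards was not examined.

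UGDH, which makes UDP-glucuronate from UDP-glucose, stayed within 35.8 to 70.3 FPKM. It was at 48.7, 70.3 and 70.3 FPKM in SW33K, 44.3, 48.5 and 47.7 in FW00K, 56.9, 55.1 and 56.8 in FW11K, and 35.8, 68.7 and 66.8 in FW33K. The FW33K libraries lay on both sides of all FW00K libraries. These FPKM are not scaled between libraries. After median-ratio scaling UGDH rose in FW33K against FW00K by 1.57 (SE 0.18, limma adjusted p = 1.6e-04).

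UXS1 makes UDP-xylose from UDP-glucuronate. It was at 37.3, 35.6 and 36.5 FPKM in SW33K, 15.7, 12.4 and 12.0 in FW00K, 13.2, 11.5 and 12.2 in FW11K, and 12.1, 23.0 and 21.8 in FW33K. In these FPKM, not scaled between libraries, all 3 SW33K libraries, replicate 1 included, lay above every library of the other treatments. The difference SW33K minus FW33K was 0.96 (SE 0.27), with a limma Benjamini-Hochberg adjusted p of 0.0420, which missed the threshold of 0.01. After median-ratio scaling it was 0.37 (SE 0.26, limma adjusted p = 0.391). UXS1 then rose in FW33K against FW00K by 1.73 (SE 0.26, limma adjusted p = 6.7e-04).

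MINPP1 (1 of 2), a phosphatase of inositol polyphosphates, had its highest levels at 33 g/L. It was at 33.6, 42.1 and 41.6 FPKM in SW33K, 14.8, 19.6 and 19.6 in FW00K, 19.8, 6.89 and 6.94 in FW11K, and 29.8, 33.4 and 33.4 in FW33K. FW33K did not overlap with FW00K or FW11K. It rose in FW33K against FW11K by 1.60 (SE 0.35, limma adjusted p = 0.0037), whereas FW33K minus FW00K was 0.81 (SE 0.35, limma adjusted p = 0.0498).

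IMPAD1, a Golgi phosphatase of the inositol monophosphatase family, was at 21.2, 38.8 and 39.8 FPKM in SW33K, 15.1, 13.8 and 13.9 in FW00K, 16.4, 16.5 and 18.1 in FW11K, and 9.55, 25.7 and 23.6 in FW33K. Its FW33K libraries lay on both sides of FW00K and of FW11K. After median-ratio scaling IMPAD1 rose in FW33K against FW00K by 1.61 (SE 0.20, limma adjusted p = 2.4e-04). SLC2A13 (1 of 2), a proton-coupled myo-inositol transporter in mammals, was low throughout. It was at 0.715, 0.198 and 0.285 FPKM in SW33K, 0.0951, 0.473 and 0.408 in FW00K, 0.188, 0.0908 and 0.162 in FW11K, and 0.618, 2.67 and 2.30 in FW33K. Its FW33K libraries were above all FW00K and FW11K libraries, and its mean under 1 FPKM kept it out of the test.

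**Figure D2:**
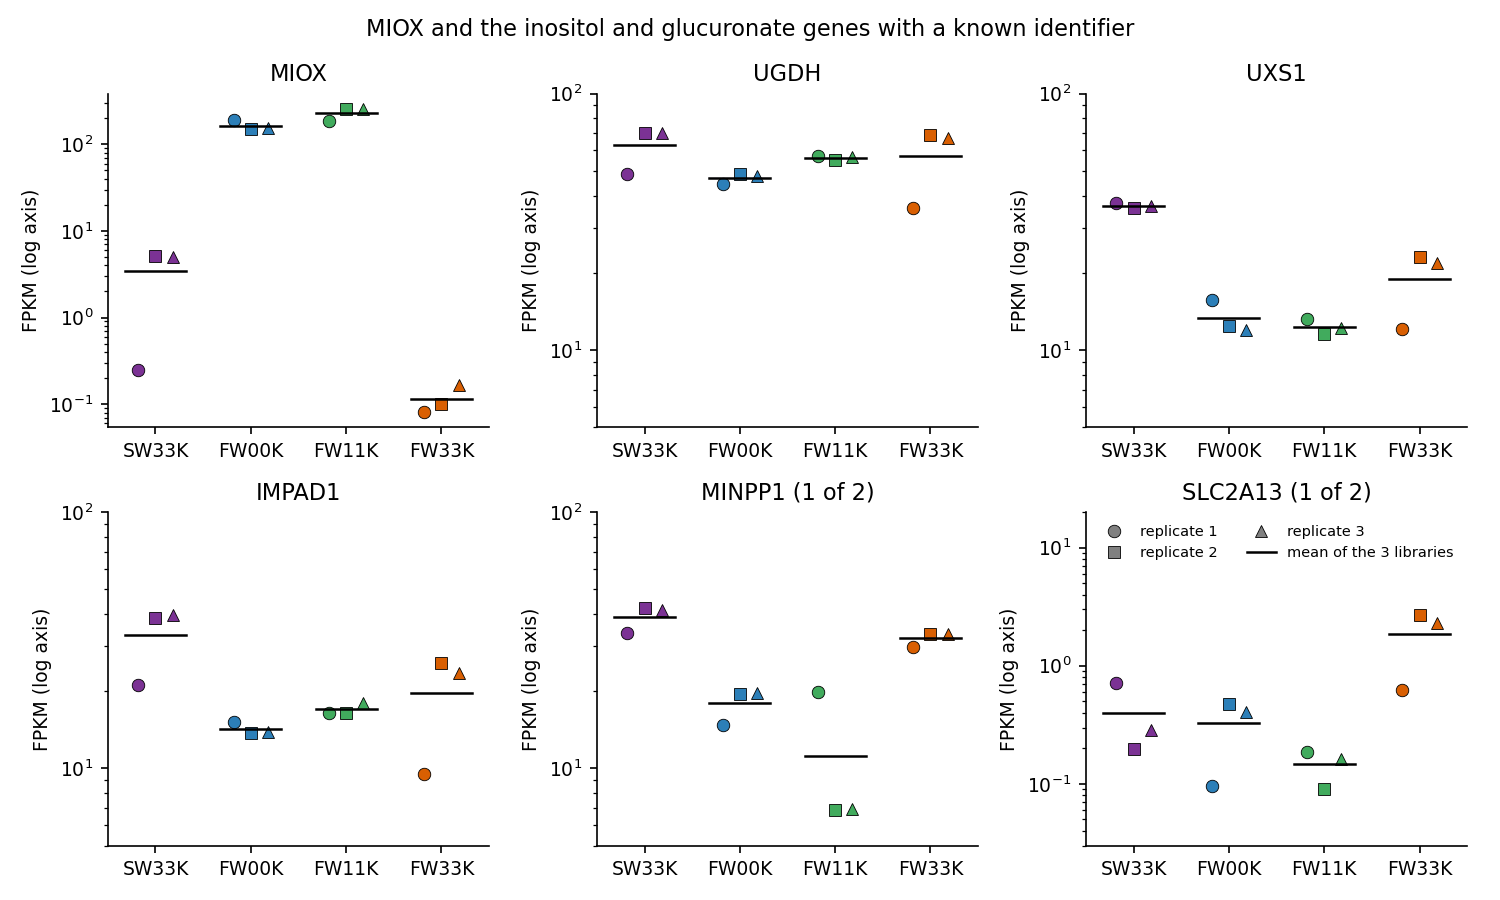
Levels of MIOX and the 5 inositol and glucuronate genes in FPKM on log axes, by treatment, with symbols for replicates and lines for means of 3 libraries. UGDH, UXS1, IMPAD1 and MINPP1 (1 of 2) share an axis from 5 to 100 FPKM. MIOX spans 0.0812 to 258 FPKM, whereas UGDH spans 35.8 to 70.3 FPKM. The FPKM are not scaled between libraries.

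In FW33K minus FW00K, 0 of the 4 inositol and glucuronate genes passed the limma threshold, 1 of them at an unadjusted p under 0.05. Over all genes, 1.71% were higher and 49.6% were lower in FW33K at this threshold. All 4 differences were positive, with a median of 0.38 beside -1.20 over all genes. The count changed with the scaling. After median-ratio scaling all 4 rose in FW33K, when 11.1% of all genes were called higher and 7.70% lower. MINPP1 (1 of 2) was the 1 gene called in FW33K minus FW11K, with 1.79% of all genes higher and 23.4% lower. All 4 rose there after median-ratio scaling, with 8.79% of all genes higher and 5.75% lower. The MINPP1 (1 of 2) call was lost without any 1 of FW11K replicates 2 and 3 and the 3 FW33K libraries. Without FW11K replicate 1 the list had 1 call in each of FW33K minus FW00K and FW11K minus FW00K. The share of all genes under these settings is not given here.

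In FW11K minus FW00K none of the 4 was called by limma, 1 at an unadjusted p under 0.05, with 0.284% of all genes higher and 4.17% lower. None was called after median-ratio scaling either, when 4.03% of all genes were higher and 4.02% lower. In SW33K minus FW33K none was called, 2 at an unadjusted p under 0.05, with 1.04% of all genes higher and 0.387% lower. Median-ratio scaling also gave 0 calls, with 1.52% of all genes higher and 2.80% lower. Leaving out SW33K replicate 1 gave 0 calls as well, although 22.1% of all genes were then called higher and 0.980% lower. MIOX lay below each of the 4 in FW33K minus FW00K and above each of them in SW33K minus FW33K.

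Genes of other organic osmolytes were called in both directions in FW33K minus FW00K. Of 15 symbols for taurine, betaine, glycine methylation, sorbitol and glycerophosphocholine, 7 were paired with an identifier and all 7 were tested. They too came from the study's own selection. In FW33K minus FW00K, 2 rose and 3 fell by limma, and the median of the 7 was -1.07, beside -1.20 over all genes. With median-ratio scaling 3 rose and 2 fell, beside 11.1% of all genes higher and 7.70% lower. The 3 falls among 7 genes stand beside 49.6% of all genes, and the 2 rises beside 1.71%.

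CDO1, cysteine dioxygenase, opens the route from cysteine to taurine and showed a pattern opposite to MIOX between FW33K and FW00K. It was at 172, 145 and 138 FPKM in SW33K, 11.9, 27.3 and 25.1 in FW00K, 117, 25.5 and 25.6 in FW11K, and 386, 382 and 358 in FW33K. It rose in FW33K against FW00K by 4.15 (SE 0.51, limma adjusted p = 7.9e-05). GNMT, which methylates glycine to sarcosine and was the other gene that rose, is named after its values were seen. It averaged 281 ± 67.6 FPKM in FW33K and 113 ± 1.81 FPKM in FW00K (SD, n = 3 each), with limma adjusted p = 0.0052. The GNMT call was lost with replicates 2 and 3 averaged (adjusted p = 0.105) and without any 1 of the FW00K libraries and FW33K replicates 2 and 3.

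The members that fell act at other points. PIPOX, peroxisomal sarcosine oxidase, was at 7.96, 45.3 and 45.7 FPKM in SW33K, 101, 182 and 185 in FW00K, 79.9, 51.6 and 50.9 in FW11K, and 4.54, 3.77 and 3.85 in FW33K. It fell by 4.91 on the log2 scale in FW33K against FW00K (SE 0.53, limma adjusted p = 5.2e-05). Like MIOX, it was lowest in FW33K, and SW33K replicate 1 lay far below the other 2 SW33K libraries.

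DMGDH, dimethylglycine dehydrogenase of betaine breakdown, averaged 0.307 ± 0.122 FPKM in FW33K and 7.43 ± 0.286 FPKM in FW00K (SD, n = 3 each), with limma adjusted p = 2.7e-04. CSAD, which forms hypotaurine on the way to taurine, averaged 21.4 ± 7.76 FPKM in FW33K and 88.8 ± 41.6 FPKM in FW00K, with limma adjusted p = 0.0016. The CSAD call was lost with median-ratio scaling, at a log2 difference of -0.60 (limma adjusted p = 0.229), with quantile normalization (-0.95, adjusted p = 0.0622) and with replicates 2 and 3 averaged (adjusted p = 0.0270). The DMGDH call was lost with quantile normalization (limma adjusted p = 0.0116). In SW33K the CSAD mean was lower still, at 4.83 ± 1.45 FPKM.

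In FW11K minus FW00K, DMGDH was the 1 osmolyte gene called, and it fell by 2.24 (SE 0.42, limma adjusted p = 0.0059), beside 4.17% of all genes lower. That call was lost without any 1 of the FW00K libraries, FW11K replicates 2 and 3 and FW33K replicates 2 and 3. CDO1 and GNMT rose and PIPOX fell in FW33K minus FW11K, beside 1.79% of all genes higher and 23.4% lower. In SW33K minus FW33K none of the 7 was called by limma, 5 at an unadjusted p under 0.05. Without SW33K replicate 1, 2 rose and 1 fell, beside 22.1% of all genes higher and 0.980% lower. Further, 1 was called without FW00K replicate 1 and 2 were called without FW11K replicate 1. The share of all genes under those settings is not given here.

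**Figure D3:**
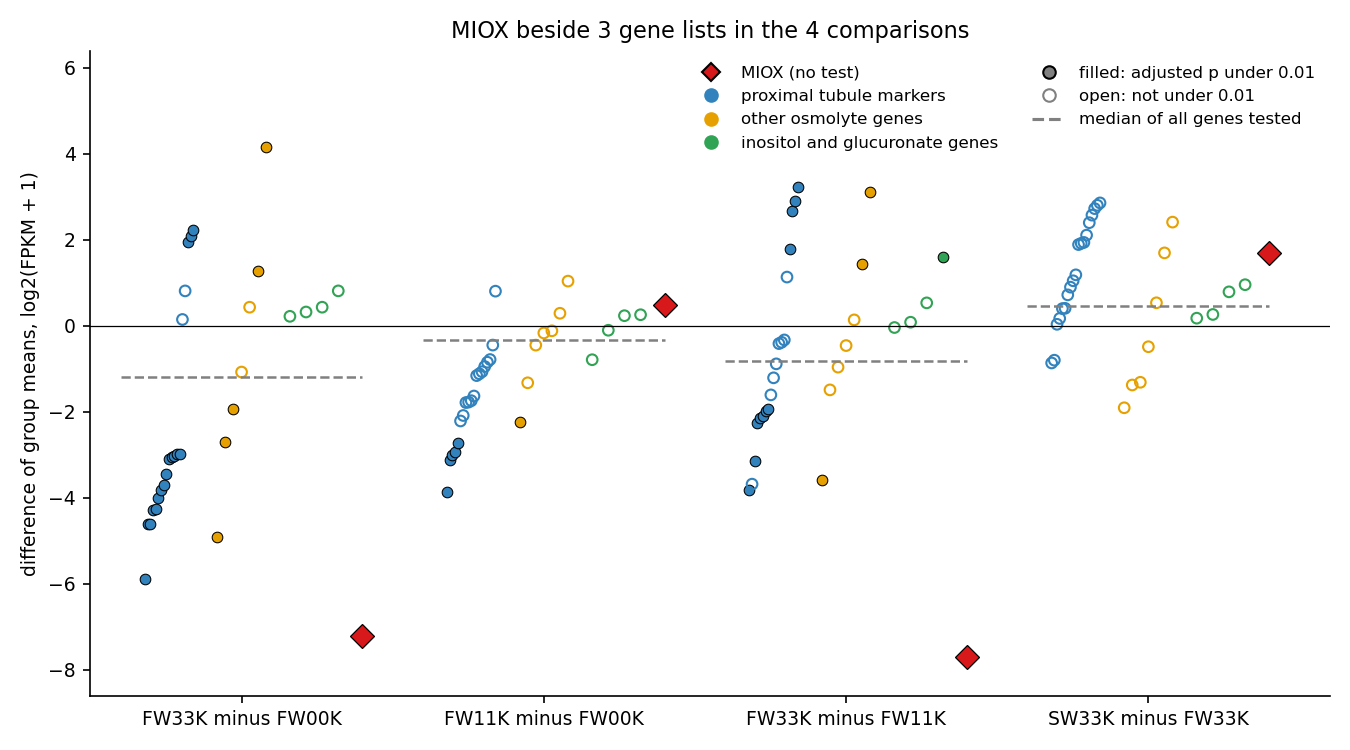
Differences of treatment means on the log2(FPKM + 1) scale in 4 comparisons, for MIOX (diamond, no test) and for the tested genes of 3 lists (circles, filled where the limma adjusted p was under 0.01). Dashed lines mark the median of all 15503 genes. MIOX lies below every list gene in FW33K minus FW00K at -7.21 and in FW33K minus FW11K at -7.69, and just above 0 in FW11K minus FW00K.

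Markers of the proximal tubule, where mammalian MIOX is made, were examined next. Of 26 symbols, 18 were paired with an identifier and gave 19 genes, all of them tested and all again from the study's selection. In FW33K minus FW00K, 14 fell and 3 rose by limma, and the median was -3.10, beside -1.20 over all genes. After median-ratio scaling 13 fell and 4 rose, beside 7.70% of all genes lower and 11.1% higher. The 14 falls among 19 genes stand beside 49.6% of all genes. MIOX had a more negative difference than each of the 19.

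The largest falls belonged to genes of metabolism and transport. AGXT2 (2 of 2), a mitochondrial aminotransferase, was at 2.76, 86.4 and 84.1 FPKM in SW33K, 249, 242 and 249 in FW00K, 125, 33.4 and 34.4 in FW11K, and 0.804, 5.78 and 4.96 in FW33K. It fell by 5.89 (SE 1.00, limma adjusted p = 4.2e-04) in FW33K against FW00K. SW33K replicate 1 lay within the range of FW33K and the other 2 SW33K libraries lay above it.

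SLC22A7 (1 of 2), an organic anion transporter, averaged 1.16 ± 0.883 FPKM in FW33K and 49.5 ± 7.94 FPKM in FW00K (SD, n = 3 each). G6PC (1 of 2), the catalytic subunit of glucose 6-phosphatase, averaged 2.41 ± 1.54 FPKM in FW33K and 77.4 ± 9.02 FPKM in FW00K. XPNPEP2, a membrane aminopeptidase, averaged 6.13 ± 9.01 FPKM in FW33K and 80.4 ± 27.3 FPKM in FW00K. On the log2 scale SLC22A7 (1 of 2) fell by 4.61, G6PC (1 of 2) fell by 4.6 and XPNPEP2 fell by 4.28, with limma adjusted p of 1.0e-04 for SLC22A7 (1 of 2), 1.4e-04 for G6PC (1 of 2) and 3.0e-04 for XPNPEP2. The XPNPEP2 call was lost with median-ratio scaling (limma adjusted p = 0.0202) and with quantile normalization (adjusted p = 0.0114).

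The 3 markers that rose in FW33K against FW00K are named here after their values were seen. SLC3A1, the heavy subunit of the cystine transporter, averaged 336 ± 69.5 FPKM in FW33K and 70.2 ± 1.62 FPKM in FW00K (limma adjusted p = 0.0038). SLC7A13, an amino acid transporter that pairs with SLC3A1 in mammals, averaged 148 ± 56.1 FPKM in FW33K and 33.9 ± 12.0 FPKM in FW00K (limma adjusted p = 0.0026). MEP1B (2 of 2), a brush border protease, averaged 36.4 ± 1.45 FPKM in FW33K and 9.19 ± 4.0 FPKM in FW00K (limma adjusted p = 0.0033). With replicates 2 and 3 averaged, 14 markers fell and none rose, beside 6.15% of all genes lower and 0.445% higher. All 3 calls of a rise were lost there (limma adjusted p of 0.0247, 0.0266 and 0.0364). Each was also lost when single libraries were left out: SLC3A1 without any 1 FW00K library or FW33K replicate 1, SLC7A13 without FW00K replicate 1 or FW33K replicate 2 or 3, and MEP1B (2 of 2) without FW00K replicate 2 or 3 or FW33K replicate 1. The lowest FW33K mean among the 19 was 1.16 FPKM, that of SLC22A7 (1 of 2), beside 0.116 FPKM for MIOX.

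At 11 g/L MIOX and these markers parted. In FW11K minus FW00K, 5 of the 19 fell by limma, none rose, and 18 of the 19 differences were negative, with a median of -1.74 beside -0.34 over all genes. Of all genes 4.17% were called lower and 0.284% higher. MIOX had a positive difference of 0.49, higher than 18 of the 19. The 5 called were XPNPEP2, CA4 (1 of 3), G6PC (1 of 2), SLC6A18 (2 of 3) and AMN, 3 of which are named after their values were seen. XPNPEP2 averaged 4.65 ± 2.44 FPKM in FW11K and 80.4 ± 27.3 FPKM in FW00K. In FW33K minus FW11K, 7 fell and 4 rose, with a median of -1.21 beside -0.82 over all genes, of which 23.4% were called lower and 1.79% higher. After median-ratio scaling 3 fell and 4 rose, beside 5.75% of all genes lower and 8.79% higher.

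The counts at 11 g/L changed when single libraries were left out. The share of all genes called is given only for leaving out SW33K replicate 1. The other counts here therefore cannot be set against all genes. In FW11K minus FW00K the count was 0 without FW00K replicate 2, FW00K replicate 3 or FW11K replicate 3, 1 without FW11K replicate 2 and 3 without FW00K replicate 1 or FW33K replicate 3. Without FW11K replicate 1 the count was 8. Without SW33K replicate 1, it was 9, beside 13.0% of all genes lower and 1.01% higher, and that library enters the fit through the shared spread. In FW33K minus FW11K the count was 4 without FW11K replicate 2 or 3 and 5 without any 1 FW33K library.

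In SW33K minus FW33K none of the 19 proximal tubule markers was called by limma, 10 at an unadjusted p under 0.05, and 17 differences were positive. Without SW33K replicate 1, 11 rose and none fell, beside 22.1% of all genes higher and 0.980% lower. Without FW11K replicate 1, 2 were called, and the share of all genes under that setting is not given here. The spread within SW33K was wide. As a percentage of each gene's FW00K mean, the median of the 19 was 11.4% in SW33K replicate 1, 50.2% and 46.8% in SW33K replicates 2 and 3, and 8.65%, 10.4% and 9.80% in FW33K replicates 1, 2 and 3. MIOX stood at 0.152%, 3.14% and 3.03% in the SW33K libraries and at 0.0493%, 0.0604% and 0.102% in the FW33K libraries. In each of these 6 libraries MIOX was below all 19 markers.

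**Figure D4:**
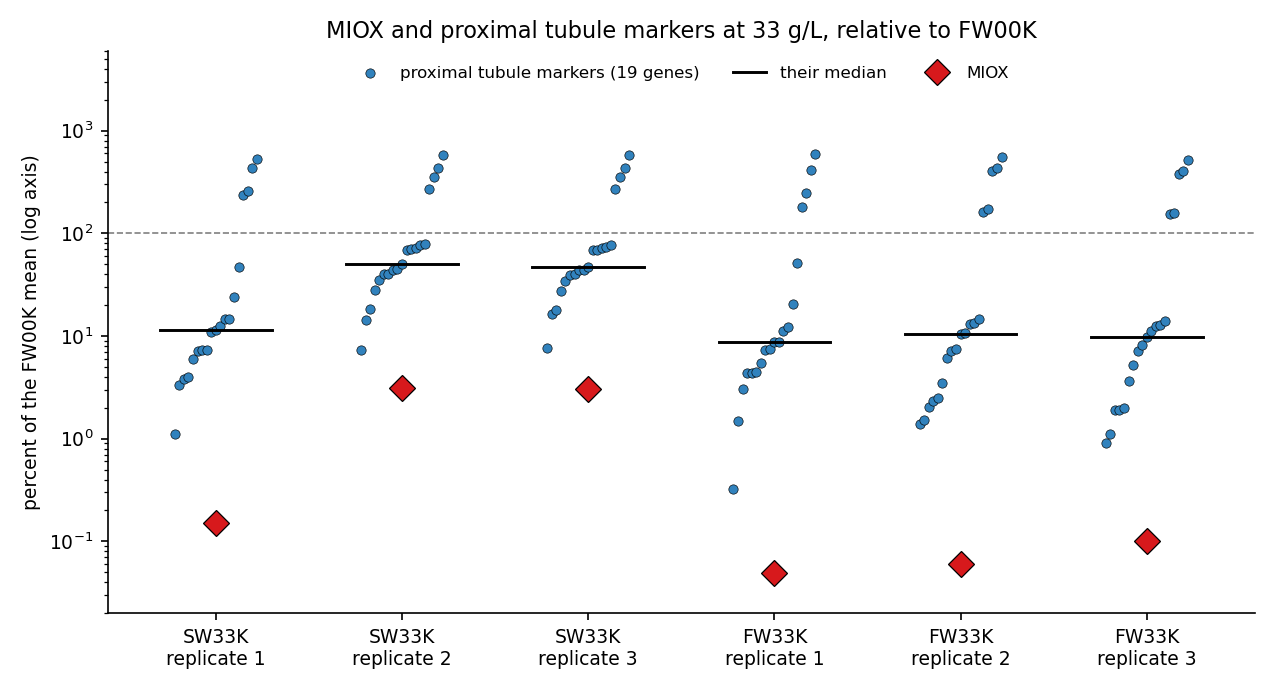
Levels at 33 g/L as a percentage of the FW00K mean of the same gene, on a log axis, for the 19 proximal tubule markers (circles, with their median as a line) and MIOX (diamond) in each SW33K and FW33K library. The dashed line is 100%. MIOX is the lowest point in all 6 libraries, between 0.0493% and 3.14%, and SW33K replicate 1 lies closer to the FW33K libraries than the other 2 SW33K libraries do.

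The summed levels of marker lists, in FPKM not scaled between libraries, are given beside MIOX. Summed over the 19 proximal tubule markers, the level was 816 to 1675 FPKM in SW33K, 1979 to 2254 in FW00K, 591 to 1515 in FW11K and 806 to 982 in FW33K. Summed over 13 blood and haematopoietic markers, it was 132 to 224 FPKM in SW33K, 1140 to 1275 in FW00K, 1367 to 2522 in FW11K and 212 to 401 in FW33K. The fish kidney also forms blood cells. The blood sum, like MIOX, was lowest in both treatments at 33 g/L and highest in FW11K. Unlike MIOX, its median was lower in SW33K (215 FPKM) than in FW33K (382 FPKM). Of the 13 members, 2 had a positive difference in FW33K minus FW00K, neither of them called. These were HBM, with means of 47.9 FPKM in FW33K and 25.8 in FW00K, and SLC4A1 (1 of 2), with 41.6 and 19.8. Both are named after their values were seen.

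The blood, podocyte, distal nephron, muscle and interrenal markers too came from the study's own selection on these libraries. Their counts are therefore not independent evidence of a direction. Of the 13 blood markers, 8 fell and none rose in FW33K minus FW00K by limma. Their median was -2.02 beside -1.20 over all genes, of which 49.6% were called lower. After median-ratio scaling 4 fell and 1 rose, beside 7.70% of all genes lower and 11.1% higher. In FW33K minus FW11K, 11 fell and none rose, beside 23.4% of all genes lower, and with replicates 2 and 3 averaged none was called. The 7 podocyte markers all fell in FW33K minus FW00K, with sums of 32.2 to 36.1 FPKM in FW33K and 290 to 392 FPKM in FW00K. The 2 distal nephron markers, SLC12A1 and SLC12A3, summed to 29.7 to 54.6 FPKM in FW33K and 310 to 346 FPKM in FW00K. No marker gene was at 0 in all libraries of a treatment. Skeletal muscle markers met this as well, so it shows detection only and does not establish which tissue was sampled.

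Of the other tissues, skeletal muscle markers summed to 0.739 to 1.4 FPKM in FW33K and 41.7 to 351 FPKM in FW00K, and the interrenal marker STAR stood at 0 to 3.95 FPKM over the 12 libraries. The highest FW00K sum was 474.7 times the lowest FW33K sum for muscle, 12.2 times for podocytes, 11.7 times for the distal nephron, 6.01 times for blood and 2.80 times for the proximal tubule. These sums are not scaled between libraries. Median-ratio scaling divides the FW00K libraries by 1.48 to 1.67 and the FW33K libraries by 0.465 to 0.702, which lowers each of these ratios. Scaled sums are not given here. The proximal tubule sum includes abundant members that rose, such as SLC3A1. The median of the 19 markers in FW33K was 10.8% of the FW00K mean. For MIOX, the ratios between single libraries ran from 907 to 2331. The part of cell composition in the MIOX result was not tested.

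Other genes were ranked by their likeness to MIOX, as Pearson's r of log2(FPKM + 1) over the 12 libraries. These r describe the libraries and carry no test, since the libraries fall into a set with high MIOX (FW00K and FW11K) and a set with low MIOX (FW33K and SW33K). All genes share the libraries and the general shift: of 15502 genes, 1573 (10.1%) had r above 0.9, and the median r was 0.678. After median-ratio scaling 69 genes had r above 0.9 and the median r was 0.0548.

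The 10 most alike had r of 0.986 to 0.995, and symbols were known for 2 of them. CDCA8, a member of the chromosomal passenger complex in cell division, had r = 0.988 over 12 libraries and kept r = 0.961 after scaling. It was at 3.49, 7.84 and 6.90 FPKM in SW33K, 41.1, 24.3 and 26.8 in FW00K, 24.6, 39.0 and 39.9 in FW11K, and 2.79, 4.35 and 3.77 in FW33K. FW33K and SW33K lay below all libraries of FW00K and FW11K, which follows largely from the choice of the gene by its r.

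MPEG1, a macrophage gene from the blood list, had r = 0.986 and, after scaling, r = 0.916. It was at 14.5, 22.4 and 20.8 FPKM in SW33K, 90.4, 70.7 and 70.8 in FW00K, 59.1, 114 and 110 in FW11K, and 11.9, 10.05 and 9.14 in FW33K. Its range was much narrower than that of MIOX. The CDCA8 mean in FW33K was 11.8% of its FW00K mean and that of MPEG1 13.4%, whereas the same figure for MIOX was 0.0705%.

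The gene with the highest r, ENSGACG00000015634, for which no symbol was known, had r = 0.995 but only 0.553 after scaling. Its FW33K mean was 36.8% of its FW00K mean. The 10 most alike genes shared 2 members with the 10 found after scaling and none with the 10 found by Spearman's rho, so single ranks depended on the measure.

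**Figure D5:**
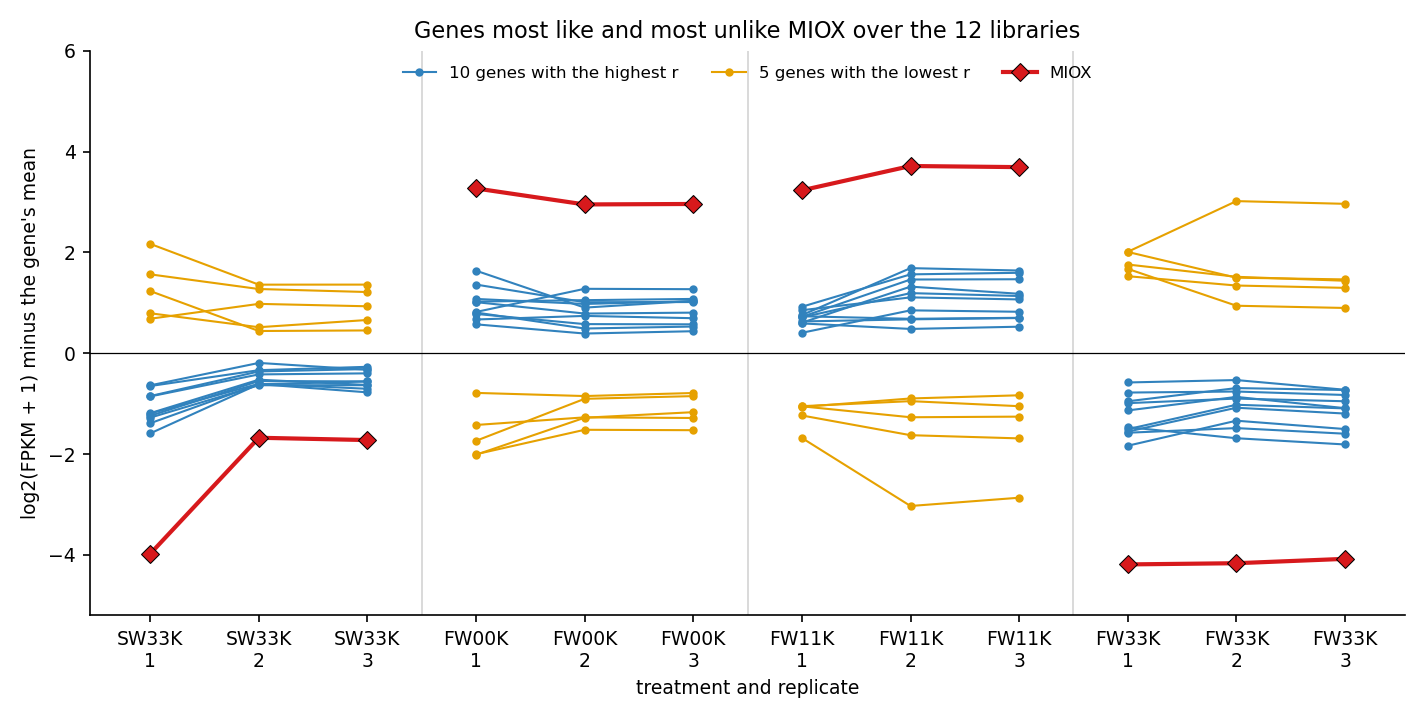
Levels of MIOX (diamonds), the 10 genes with the highest r and the 5 with the lowest r over the 12 libraries, each as log2(FPKM + 1) minus the gene's own mean. Columns are replicates within treatments. The 10 genes are high in FW00K and FW11K and low in SW33K and FW33K, as MIOX is, over a smaller range, and the 5 run the other way. All were chosen by r, so their shapes follow from that choice.

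The 5 most unlike genes had r of -0.975 to -0.969, and 4 had a known symbol. PDIA4, an enzyme of the endoplasmic reticulum that forms disulfide bonds, averaged 600 ± 209 FPKM in SW33K, 58.0 ± 10.7 in FW00K, 65.1 ± 11.7 in FW11K and 558 ± 66.6 in FW33K (SD, n = 3 each). CALR3 (1 of 2), a chaperone of the calreticulin family, averaged 644 ± 218 FPKM in SW33K, 176 ± 54.0 in FW00K, 199 ± 16.3 in FW11K and 1000.3 ± 86.6 in FW33K. ABCA2, a lipid transporter, averaged 6.56 ± 0.805 FPKM in SW33K, 0.651 ± 0.0945 in FW00K, 0.813 ± 0.157 in FW11K and 12.3 ± 2.95 in FW33K. CGB1 was at most 0.201 FPKM in the FW00K and FW11K libraries and averaged 3.82 ± 1.55 FPKM in FW33K. In each of these 4 genes all libraries at 33 g/L lay above all those at 0 and 11 g/L. The genes were picked for their negative r with MIOX over the same libraries, so this separation follows largely from the choice.

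Within the lists, r with MIOX ranged from -0.799 to -0.186 over the 4 inositol and glucuronate genes, from -0.904 to 0.880 over the 7 osmolyte genes and from -0.893 to 0.927 over the 19 proximal tubule markers. Over the 13 blood markers r ranged from 0.344 to 0.986, and 6 had r above 0.9, beside 10.1% of all genes. After median-ratio scaling, when 69 of all genes had r above 0.9, MPEG1 kept r = 0.916. SPI1 (2 of 2), LMO2, CORO1A, MARCO and BLNK then had r of 0.882, 0.877, 0.853, 0.817 and 0.740. For NCF1, CYBB and RHAG the scaled r was 0.724, 0.689 and 0.645. It was lower still for KLF1, SPTB, SLC4A1 (1 of 2) and HBM, at 0.451, 0.360, 0.312 and -0.0772. Apart from MPEG1, these blood markers are named after their values were seen. The median r was -0.509 over the inositol and glucuronate genes and 0.307 over the osmolyte genes. For the proximal tubule markers it was 0.644 and for the blood markers 0.874, beside 0.678 over all genes. After median-ratio scaling the medians in this order were -0.889, -0.404, 0.457 and 0.724, beside 0.0548 over all genes. The list members came from the study's selection of salt responsive genes, so the median of all genes is no equal standard.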

How the data were processed

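Kidney poly(A) RNA of 12 fish libraries was sequenced as paired-end reads. Before deposit, the authors dropped low-quality reads, trimmed the rest to a fixed length, aligned them with TopHat2 2.0.3 to BROADS1, in which known polymorphic positions had been masked, and estimated FPKM with Cufflinks 2.0.2. SW reads were allowed more mismatches than FW reads. The main fit added no scaling between libraries to the deposited FPKM. Whether they had been scaled before deposit is not known. Their treatment means are not equal to the FPKM that the study prints for the same genes, such as ACE. The study's own tests used read counts, which were not analysed here. Samples shared lanes, and lanes per sample were not used here.

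Genes averaging 1 FPKM or more (15503 of 20860) were tested on log2(FPKM + 1) in limma 3.58.1 under R 4.3.3 (trended empirical Bayes), all 12 libraries in one fit, at a Benjamini-Hochberg adjusted p under 0.01. Python 3.11.15, numpy 2.4.6, pandas 2.3.3 and matplotlib 3.10.9 gave the other values and figures. SEs of MIOX use the libraries of the groups compared.

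Symbols came from the study's table of responsive genes (1844 identifiers, all found) and its methods, giving 1380 identifiers with a symbol. The RefSeq table held no Ensembl identifiers, and none of its coordinates were used. Genes named were MIOX, the measured inositol genes, the 4 called members of the osmolyte and of the proximal tubule list with the largest differences in FW33K minus FW00K and in SW33K minus FW33K (none was called there), the 10 most alike and 5 most unlike MIOX with a symbol, and GAPDH, besides those stated to be named after their values were seen. MIOX, the lists and the tests were chosen with earlier results of these data known. Alternatives were another pseudocount, filter, threshold or scaling, a fit of the compared libraries only, a replicate block, averaging of replicates 2 and 3, and leaving out each library.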

Additional observations from a re-analysis of the deposited data

How the results depend on the processing

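The direction of the MIOX difference held in all 4 comparisons under every alternative run. With a pseudocount of 0.1 the log2 difference was -9.59 in FW33K minus FW00K, -10.07 in FW33K minus FW11K and 3.31 in SW33K minus FW33K. Median-ratio scaling gave -6.48 in FW33K minus FW00K, 0.88 in FW11K minus FW00K and -7.36 in FW33K minus FW11K, and quantile normalization -6.68 in FW33K minus FW00K and -7.03 in FW33K minus FW11K. FPKM divided by the library sum, chosen after seeing the data, gave -7.58 in FW33K minus FW00K and 0.13 in FW11K minus FW00K. Leaving out 1 library gave -7.26 to -7.10 in FW33K minus FW00K, 0.40 to 0.64 in FW11K minus FW00K, -7.85 to -7.61 in FW33K minus FW11K and 1.29 to 2.44 in SW33K minus FW33K.

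Calls of the inositol and glucuronate genes numbered 4 in FW33K minus FW00K and 4 in FW33K minus FW11K under either scaling, by median ratio or by quantiles. In FW33K minus FW00K there was 1 call with only the compared libraries or at an adjusted p under 0.05. In FW33K minus FW11K there were 2 calls without a filter and 0 with only the compared libraries or with replicates 2 and 3 averaged. In SW33K minus FW33K there was 1 call at 0.05. UGDH, FW33K minus FW11K, reversed to 0.93 when scaled by median ratio and to 0.79 when scaled by quantiles, and was called in both.

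Calls of the other osmolyte genes numbered 3 in FW33K minus FW00K with replicates averaged. In FW11K minus FW00K there were 0 with a pseudocount of 0.1, a mean of at least 5 FPKM, either scaling, only the compared libraries, the replicate block or averaging. In FW33K minus FW11K there was 1 with only the compared libraries, 0 with averaging and 5 at 0.05. In SW33K minus FW33K there were 2 by median ratio, 1 by quantiles, 1 with the replicate block and 4 at 0.05.

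Calls of the proximal tubule markers in FW11K minus FW00K numbered 2 with a pseudocount of 0.1 or no filter, 3 with median-ratio scaling, 0 with averaging and 10 at 0.05. In FW33K minus FW11K they numbered 6 without a filter or with only the compared libraries, 7 with either scaling and 0 with averaging. In SW33K minus FW33K they numbered 3 with a pseudocount of 0.1, 1 with a mean of at least 5 FPKM, 2 with either scaling, 1 with the replicate block and 7 at 0.05. For the pseudocount of 0.1, the other filters and the 0.05 threshold, the share of all genes called is not given here. The same holds for leaving out any library but SW33K replicate 1. The counts of all 3 lists under those settings therefore cannot be set against all genes.

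Leaving out 1 library gave, for the inositol and glucuronate genes, 0 to 1 calls in FW33K minus FW00K, 0 to 1 in FW11K minus FW00K, 0 to 1 in FW33K minus FW11K and 0 to 0 in SW33K minus FW33K. For the other osmolyte genes the ranges in the same order were 4 to 6, 0 to 2, 2 to 4 and 0 to 3, and for the proximal tubule markers 15 to 17, 0 to 9, 4 to 14 and 0 to 11. Of 120 results of single list genes, 71 changed their call under at least 1 alternative.

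The labels tie replicate numbers to no shared fish, batch or day. Deviations from the treatment means of libraries with the same number correlated at -0.0504 to 0.416, over 0.1 in 13 of 18 pairs and not in all, so the numbers were not taken as pairs. In 28 of 36 comparisons with another treatment a library correlated best with its own number, which is a hint from the data and not the design. The replicate block called 57.7% of all genes in FW33K minus FW00K, 4.95% in FW11K minus FW00K, 33.9% in FW33K minus FW11K and 1.72% in SW33K minus FW33K, and left the other counts of the inositol, osmolyte and proximal tubule lists within 1.5 times. With replicates 2 and 3 averaged, limma called 6.60%, 0.00%, 0.316% and 0.0129% of all genes in the same order of comparisons, against 51.3%, 4.46%, 25.1% and 1.43% with all 12 libraries kept apart. Median-ratio scaling called 18.8%, 8.04%, 14.5% and 4.32%, and leaving out SW33K replicate 1 62.0%, 14.0%, 41.9% and 23.1%. Quantile normalization called 17.3%, 7.42%, 12.4% and 3.23%, and a fit of only the compared libraries 58.6%, 3.92%, 16.4% and 0.0452%. The cause of these changes was not tested. The study's read totals per library were not used here, and how many reads lie behind the MIOX values in FW33K was not analysed.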
